A study of Mus musculus with 24 samples.

Results

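The imprinted genes followed here are 10 genes expressed in brain: Meg3, Dlk1, Peg3, Peg10, Snrpn, Ndn, Magel2, Grb10, Cdkn1c and Zim1. They were taken by symbol from the 37289 genes listed in the RNA-seq files of mouse striatum. Of the 10, 9 had an identifier in the files that was paired with the symbol, and all 9 passed the filter on low counts. Snrpn, a paternally expressed gene for a small nuclear ribonucleoprotein, had no such identifier and was not analysed here. The question was whether stress of the mother during pregnancy left a lasting difference in their RNA in the offspring.

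The libraries came from 12 C57BL/6 mice, all labelled female, 3 in each of 4 groups. Het stressed mice were heterozygous for Cntnap2, a neuronal cell adhesion gene linked to autism, with an allele that the labels do not describe, and their dams had been put through variable stress for 7 days from embryonic day 12.5. Wild-type stressed mice came from stressed dams and were wild type for Cntnap2. Het control and wild-type control mice were non-stressed mice of each genotype. Stressed dams carried wild-type and het embryos together, and every litter was ear-tagged on postnatal day 12 and weaned on day 18. Striatum was taken by micropunch, and 1 library was made per mouse. Neither the age at sampling nor the litter of each mouse was known, so p-values measure the spread between mice, and littermates may be among them.

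Imprinted genes are expressed mainly from the copy inherited from 1 parent, because DNA methylation laid down in the sperm or the egg marks the copies by parent of origin. They lie in clusters, and neighbours in a cluster often use opposite parental copies. Many act on fetal growth, placental supply and the hypothalamus, and for that reason they are often studied after adversity in pregnancy. These files hold the summed RNA of both copies, so which parental copy was used was not measured.

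The promoters of 2 neighbouring pairs are printed because each pair sets a paternally expressed gene beside a maternally expressed one. Dlk1 and Meg3 share a cluster on chromosome 12, and Peg3 and Zim1 share a cluster on chromosome 7. Sequences are from RefSeq, build GRCm38.p6, and run 5′ to 3′ on the gene's strand from 250 bases before to 50 bases after the start. They lie at chr12:109452573-109452872 (plus strand, Dlk1), chr12:109540746-109541045 (plus strand, Meg3), chr7:6730370-6730669 (minus strand, Peg3) and chr7:6696383-6696682 (minus strand, Zim1). Capitals mark matches, on either strand, to TGACGTCA, the motif bound by the activity-responsive factor CREB, or to TATAAA, the core of a TATA box; the stretch in capitals near the Meg3 start holds overlapping matches to TATAAA on both strands.
Dlk1: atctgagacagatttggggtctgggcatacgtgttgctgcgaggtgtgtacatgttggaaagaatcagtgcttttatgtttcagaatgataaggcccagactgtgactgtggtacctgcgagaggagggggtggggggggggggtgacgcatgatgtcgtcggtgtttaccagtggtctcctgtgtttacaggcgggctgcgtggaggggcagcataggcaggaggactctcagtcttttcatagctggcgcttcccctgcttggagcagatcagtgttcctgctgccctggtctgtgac
Meg3: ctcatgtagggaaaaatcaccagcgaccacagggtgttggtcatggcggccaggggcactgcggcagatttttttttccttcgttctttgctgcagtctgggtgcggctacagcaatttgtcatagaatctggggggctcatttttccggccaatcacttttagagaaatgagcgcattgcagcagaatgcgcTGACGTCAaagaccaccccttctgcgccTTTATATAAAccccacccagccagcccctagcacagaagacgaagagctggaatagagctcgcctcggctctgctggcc
Peg3: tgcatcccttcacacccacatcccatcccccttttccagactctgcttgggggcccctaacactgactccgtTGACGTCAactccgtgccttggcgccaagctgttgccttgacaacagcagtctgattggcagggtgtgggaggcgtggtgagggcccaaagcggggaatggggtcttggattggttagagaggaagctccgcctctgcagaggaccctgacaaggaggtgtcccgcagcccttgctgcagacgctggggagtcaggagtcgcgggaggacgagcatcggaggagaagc
Zim1: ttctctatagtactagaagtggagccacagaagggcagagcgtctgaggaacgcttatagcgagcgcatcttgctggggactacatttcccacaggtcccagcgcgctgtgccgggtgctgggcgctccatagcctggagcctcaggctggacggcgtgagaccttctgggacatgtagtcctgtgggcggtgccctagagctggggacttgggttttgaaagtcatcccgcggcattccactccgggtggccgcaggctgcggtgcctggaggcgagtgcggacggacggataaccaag

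RefSeq held 13 promoters for 8 of the 10 genes. TGACGTCA stood in 2 of the 13, at 57 bases before the start of Meg3 and at 178 bases before the start of Peg3, and in 1.79% of all 32851 promoters of the same length. TATAAA stood in the Meg3 window printed above, in the Magel2 window and in a Snrpn window, and in 13.6% of all promoters. CpG dinucleotides, the sites at which mammalian DNA is methylated, numbered 9 in the Dlk1 window, 13 in the Meg3 window, 13 in the Peg3 window and 20 in the Zim1 window, against a median of 7 over all promoters. A Grb10 promoter on chromosome 11 (chr11:12037371-12037670, minus strand) held 45 CpG, and the other Grb10 promoter held 9. The Magel2 window held 10, the Ndn window 11 and the other Meg3 window 1. The Snrpn windows held 7, 4, 3 and 2. These counts describe letters in a window and are no measure of methylation or of binding.

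Library depth ran from 13587154 to 24039706 expected counts, and every het library was deeper than every wild-type library. Medium spiny neurons, the main cells of striatum, were checked through 16 markers: none was at 0 in all libraries, and their summed level was 4180 to 10200 TPM. Cntnap2 averaged 51.4 ± 7.23 TPM in het stressed and 50.2 ± 15.7 TPM in wild-type stressed striatum (SD, n = 3 each). It averaged 41.5 ± 5.08 TPM in het control and 46.3 ± 7.79 TPM in wild-type control striatum, and in TPM the genotypes overlapped. In CPM, counts scaled to library size, het stressed mice (73.18, 68.72 and 79.95) all lay below wild-type stressed mice (80.57, 82.7 and 129.7). Het control mice (76.5, 58.25 and 70.5 CPM) overlapped wild-type control mice (76.76, 73.86 and 112.1 CPM). Xist was at 1.32 TPM in wild-type stressed replicate 2 and at 23.09 to 108.6 TPM in the other libraries, although all mice are labelled female. The RNA file of het control replicate 1 carries another animal number than its label. Libraries also differed in how log2 CPM, the count scaled to library size, depended on gene length: this slope was lowest in het control replicate 1 (-0.336) and wild-type control replicate 1 (-0.271) and highest in replicate 3 of the wild-type stressed group (0.268) and of the wild-type control group (0.254), where positive means that long genes were relatively high. Both libraries of lowest slope are controls, so the slope moved with several differences reported below.

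Levels of the 9 genes spanned a wide range on the TPM scale, which is per length and so can be compared between genes. Averaged over the 12 libraries, Meg3 stood at 531.1 ± 261.1 TPM, Ndn at 156 ± 33.0 TPM, Peg3 at 30.1 ± 14.3 TPM and Grb10 at 15.5 ± 5.16 TPM (SD). Peg10 followed at 8.86 ± 6.34 TPM, then Dlk1 at 7.39 ± 6.68 TPM and Cdkn1c at 3.54 ± 1.06 TPM. Magel2 at 1.08 ± 0.751 TPM and Zim1 at 0.574 ± 0.429 TPM were the lowest. Meg3 lay above Ndn, Ndn above Peg3 and Peg3 above Grb10 in all 12 libraries, and so did Cdkn1c above Magel2. Grb10 lay above Peg10 in 11 of 12 libraries. Peg10 lay above Dlk1 in 10 of 12 libraries, Dlk1 above Cdkn1c in 10 and Magel2 above Zim1 in 10, so these neighbours were not separated in every mouse. In counts, Magel2 had 20 to 148 and Zim1 13 to 48 per library, so their values carry the largest counting error.

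**Figure D1:**
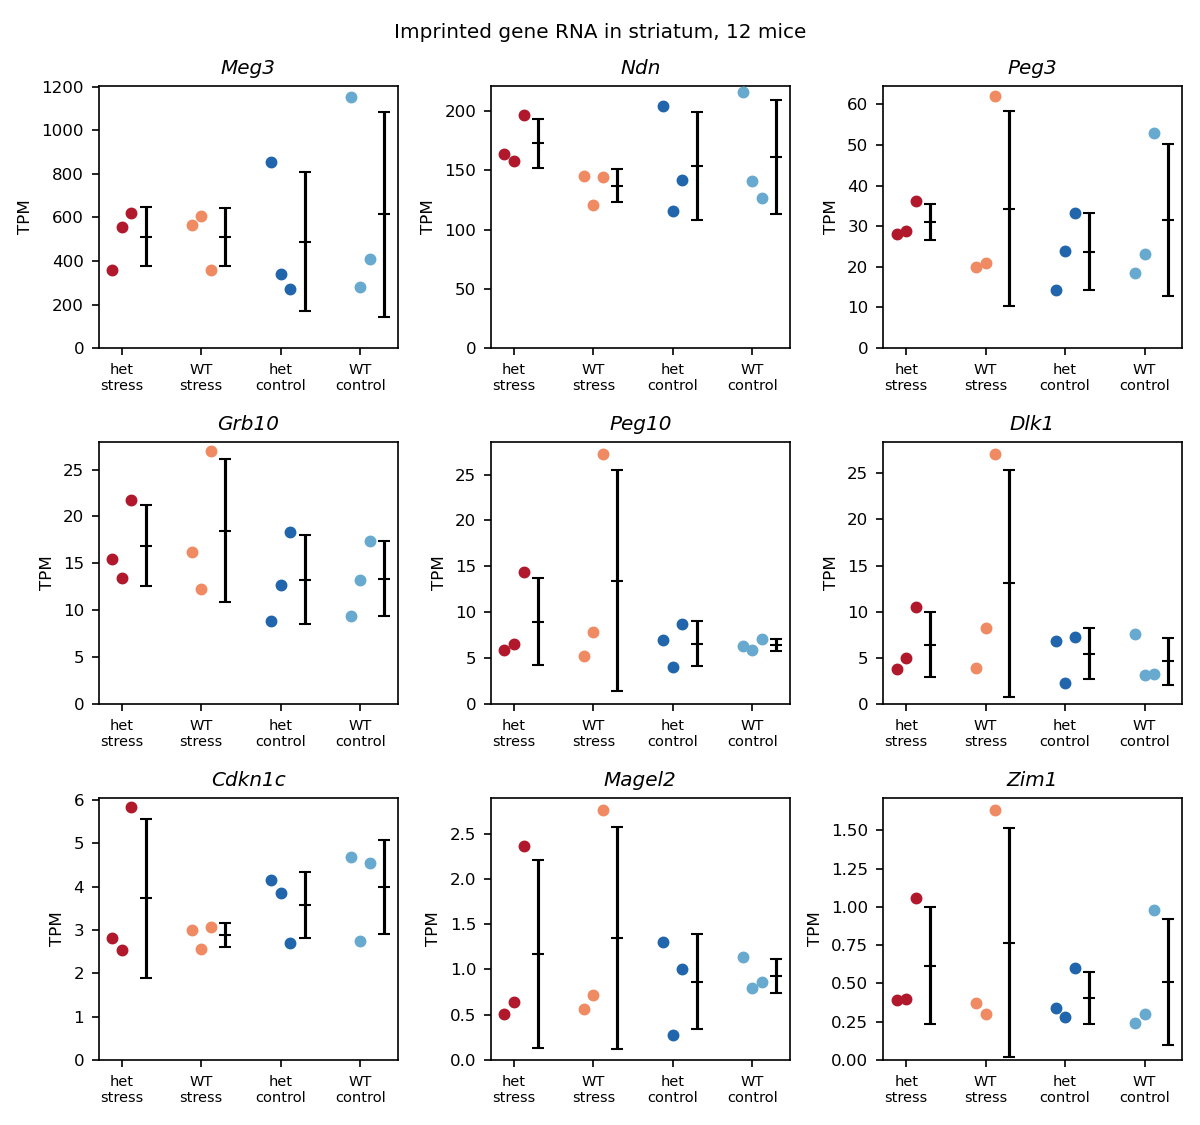
RNA level in TPM of the 9 imprinted genes (vertical axis, from 0, 1 panel per gene) in het stressed, wild-type (WT) stressed, het control and wild-type control striatum. Points are single mice, and the bar beside them is the mean ± SD (n = 3). In every panel the stressed and control mice of each genotype overlap, and wild-type stressed replicate 3 stands highest for Dlk1, Peg10, Peg3, Grb10, Magel2 and Zim1.

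None of the 9 genes differed between stressed and control mice beyond the spread between mice. With edgeR's quasi-likelihood test and Benjamini-Hochberg adjustment over all 15955 genes tested, 0 of the 9 were called at an adjusted p under 0.05 for stress averaged over genotypes, where 0% of all genes were called. The same held for stress in het mice alone (0 of 9; 0% of all genes) and in wild-type mice alone (0 of 9; 0%). At an unadjusted p under 0.05 none of the 9 passed in edgeR's test, where 2.34% of all genes did for the average, 1.12% in het mice and 2.49% in wild-type mice; at the adjusted threshold none of the 9 passed with DESeq2 or limma-voom either, which called 3 and 6 of all genes for the average. The unadjusted limma-voom p was 0.008334 for Meg3 and 0.02562 for Dlk1 in the average, and 0.005117 for Meg3 and 0.03119 for Dlk1 in wild-type mice. No gene of the 9 had stressed and control libraries that did not overlap in CPM, against 0.175% of all genes for the average, 6.68% in het mice and 5.79% in wild-type mice. Fitted log2 fold changes, stressed over control, were above 0 for 6 and below 0 for 3 of the 9 (median 0.18), against 49.9% of all genes above 0 (median 0). Single libraries moved this tally both ways. Without wild-type stressed replicate 3, 4 were above 0 and 5 below (median -0.08). Without het control replicate 1, 8 were above 0 and 1 below (median 0.14). Above 0 stood 5 of the 9 in het mice, against 50.5% of all genes, and 6 of the 9 in wild-type mice, against 48.8%. These tallies, too, shifted up or down with single libraries. In het mice 1 of the 9 was above 0 once het stressed replicate 3 was left out. All 9 were above 0 there when het control replicate 1 was dropped instead. Among wild-type mice, omitting replicate 3 of the stressed group left 2 of the 9 above 0. Omitting replicate 1 of the control group gave 7 of the 9.

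Dlk1 encodes a membrane protein related to the Notch ligands and is expressed from the paternal copy. It was at 3.79, 5.04 and 10.5 TPM in het stressed mice, against 6.78, 2.28 and 7.26 TPM in het control mice. In wild-type stressed mice it was at 3.92, 8.21 and 27.1 TPM, against 7.59, 3.10 and 3.20 TPM in wild-type control mice. A single library, wild-type stressed replicate 3, lay far above the other 11, and in both genotypes the stressed and control mice overlapped. In CPM the highest 4 libraries were replicate 3 of both stressed groups and replicate 1 of both control groups. These were also the highest 4 for the summed TPM of the hypothalamic markers given below for Magel2. In CPM, however, Dlk1 was nearly as high in wild-type stressed replicate 2 (19.32) as in wild-type control replicate 1 (19.93). In TPM the match did not hold: wild-type stressed replicate 2 (8.21) and het control replicate 3 (7.26) lay above het control replicate 1 (6.78). The part of these markers was not tested. The log2 fold change was 1.30 ± 0.70 (SE) in wild-type mice (edgeR adjusted p = 0.9999, 95% interval -0.25 to 2.85) and -0.21 ± 0.69 in het mice (adjusted p = 1, interval -1.74 to 1.31). Without wild-type stressed replicate 3 the value in wild-type mice was 0.45. The interaction, stress in het minus stress in wild type, was -1.52 ± 0.98 (edgeR adjusted p = 1), and the difference between genotypes did not pass the test. It ran from -2.24 without wild-type control replicate 1 (edgeR unadjusted p = 0.04692) to -0.68 without wild-type stressed replicate 3, and was -0.51 with limma-voom. Without both libraries of lowest length slope, a choice made after seeing the data, the fold change in wild-type mice was 2.04 (edgeR unadjusted p = 0.02029, adjusted p = 0.9926). In these bulk samples fewer cells that express a gene and less RNA per cell cannot be told apart.

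Meg3, the maternally expressed long noncoding RNA of the same cluster, was at 359.7, 555 and 620.3 TPM in het stressed mice, against 855, 341 and 270.0 TPM in het control mice. Wild-type stressed mice had 563, 608 and 356 TPM of it, against 1154, 280.1 and 411 TPM in wild-type control mice. The highest values were in replicate 1 of each control group, the libraries of lowest length slope, and the other 4 control libraries lay below the middle of the stressed ones. The log2 fold change for stress averaged over genotypes was -0.12 ± 0.25 (SE, edgeR adjusted p = 0.9753, 95% interval -0.67 to 0.42). It took the opposite sign, 0.29, without both libraries of lowest slope and 0.06 with that slope as covariate; neither passed the test. With limma-voom and sample weights it was 0.42 (adjusted p = 0.1973). In CPM Dlk1 and Meg3 shared 3 of their 4 highest libraries, het stressed replicate 3 and replicate 1 of each control group, while wild-type stressed replicate 3 was high for Dlk1 alone of them. Their r was 0.427 over the 12 libraries in log2 CPM.

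Transcript estimates for Meg3 followed the same libraries only in part. The files list 10 Meg3 transcripts. The longest, of 14548 nt (ENSMUST00000146701.1), averaged 46.6 ± 5.91 TPM in het stressed and 47.9 ± 12.9 TPM in wild-type stressed mice, against 36.5 ± 12.7 TPM in het control and 46.1 ± 20.7 TPM in wild-type control mice (SD, n = 3 each). It was lowest, at 22.4 TPM, in het control replicate 1 and highest, at 69.8 TPM, in wild-type control replicate 3. A transcript of 706 nt (ENSMUST00000143847.1), chosen after its values were seen, was at 23.1, 39.2 and 35.8 TPM in het stressed mice and at 57.7, 49.9 and 5.59 TPM in wild-type stressed mice. In het control mice it was at 110.5, 19.8 and 10.8 TPM, and in wild-type control mice at 168, 12.7 and 11.6 TPM. Replicate 1 of each control group was thus highest for the 706 nt transcript, as for the gene, while the longest transcript was not high there. Length did not divide the transcripts in this. The shortest, of 421 nt (ENSMUST00000150851.1), was at 1.17, 8.70 and 8.57 TPM in het control mice. In wild-type control mice it was at 3.01, 5.83 and 9.90 TPM, so replicate 1 was lowest in both groups. A transcript of 1988 nt (ENSMUST00000124106.1) was high there, at 178.3 TPM (het) and 194.0 TPM (wild type). Wild-type control replicate 1 was highest for 5 of the 10 transcripts. A transcript of 695 nt (ENSMUST00000128458.1) was at 17.86, 22.14 and 16.19 TPM in wild-type stressed mice, against 14.38, 8.26 and 12.66 TPM in controls. That of 1498 nt (ENSMUST00000129245.1) was at 28.05, 35.94 and 36.12 TPM in het stressed and 18.85, 24.85 and 26.45 TPM in het control mice. These groups did not overlap, as for 5.79% (wild type) and 6.68% (het) of all genes in CPM. The other genotype overlapped, and both were picked after their values were seen and not tested. Dlk1 had 8 of 10 listed transcripts above 0 in some library, and the most abundant, of 3914 nt (ENSMUST00000173539.1), ran from 0.35 TPM in het control replicate 2 to 8.67 TPM in wild-type stressed replicate 3.

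Peg3, a paternally expressed zinc finger protein known for its part in maternal care in mice, was at 28.1, 28.7 and 36.2 TPM in het stressed mice, against 14.2, 23.8 and 33.2 TPM in het control mice. In wild-type stressed mice it was at 20.0, 21.0 and 61.9 TPM, against 18.4, 23.2 and 52.8 TPM in wild-type control mice. Replicate 3 was the highest in each of the 4 groups, and stressed and control mice overlapped in both genotypes. The stress average was 0.13 ± 0.24 on the log2 scale (SE, edgeR adjusted p = 0.9753). Its neighbour Zim1, a maternally expressed zinc finger gene, was at 0.39, 0.40 and 1.06 TPM in het stressed mice and at 0.37, 0.30 and 1.63 TPM in wild-type stressed mice. In control mice Zim1 was at 0.34, 0.28 and 0.60 TPM (het) and at 0.24, 0.30 and 0.98 TPM (wild type). Replicate 3 was highest for Zim1 in all 4 groups, and its stress average was 0.40 ± 0.42 (SE, edgeR adjusted p = 0.9753). That value was 0.015 without wild-type stressed replicate 3 and 0.09 without het stressed replicate 3.

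Peg10, a paternally expressed gene derived from a retrotransposon and needed for the mouse placenta, was at 5.92, 6.54 and 14.4 TPM in het stressed mice, against 7.01, 4.0 and 8.76 TPM in het control mice. Wild-type stressed mice had 5.24, 7.85 and 27.3 TPM, against 6.30, 5.85 and 7.13 TPM in wild-type control mice. As for Dlk1, wild-type stressed replicate 3 lay far above the other libraries, het stressed replicate 3 came next, and the other 4 stressed mice lay within the range of the controls. The log2 fold change in wild-type mice was 0.89 ± 0.50 (SE, edgeR adjusted p = 0.9999, 95% interval -0.22 to 2.00), and 0.13 without wild-type stressed replicate 3. In het mice it was 0.14 ± 0.50 (edgeR adjusted p = 1). The interaction for Peg10 was -0.75 ± 0.71 (edgeR adjusted p = 1).

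Ndn and Magel2 are neighbours on chromosome 7, both paternally expressed members of the MAGE family in the region lost in Prader-Willi syndrome in humans. Ndn encodes necdin, which is abundant in mature neurons, and it was at 164, 158 and 196 TPM in het stressed mice, against 205, 116 and 142 TPM in het control mice. In wild-type stressed mice Ndn was at 146, 121 and 145 TPM, against 216, 141 and 127 TPM in wild-type control mice. As for Meg3, replicate 1 of each control group was the highest, and stressed and control mice overlapped in both genotypes. Among stressed mice all het values lay above all wild-type values in TPM, but not in CPM. The stress average of Ndn was -0.26 ± 0.27 on the log2 scale of counts (SE, edgeR adjusted p = 0.9753), 0.04 with length slope as covariate, and 0.24 without both libraries of lowest slope.

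Magel2, best known for its role in hypothalamic neurons, was at 0.51, 0.64 and 2.36 TPM in het stressed mice, against 1.30, 0.28 and 1.01 TPM in het control mice. In wild-type stressed mice it was at 0.56, 0.72 and 2.76 TPM, against 1.14, 0.79 and 0.86 TPM in wild-type control mice. Its stress average was 0.18 ± 0.52 (SE, edgeR adjusted p = 0.9753, 95% interval -0.97 to 1.33). The 4 libraries with most Magel2 in CPM were wild-type stressed replicate 3, het stressed replicate 3, het control replicate 1 and wild-type control replicate 1. The same 4 libraries had the highest summed level of 17 hypothalamic markers, a list that includes Baiap3. That sum was 36.7 to 77.0 TPM in het stressed, 41.2 to 84.7 TPM in wild-type stressed, 28.3 to 198 TPM in het control and 39.9 to 101.9 TPM in wild-type control libraries, and none of the markers was at 0 in all libraries. Baiap3 alone gave 32.2 of the 84.7 TPM in wild-type stressed replicate 3 and 26.9 of the 77.0 TPM in het stressed replicate 3. Among the markers, Oxt, Avp, Hcrt, Pmch, Agrp, Pomc, Ghrh and Gal were each highest in het control replicate 1. Crh was highest in het stressed replicate 3, and Trh and Calb2 in wild-type control replicate 1. Of the markers near 0 TPM, Hmx2, Otp and Nr5a1 were highest in het control replicate 1. Outside these 4 libraries, Sim1 was highest in wild-type stressed replicate 1 (0.14 TPM) and Hmx3 in het stressed replicate 1 (0.05 TPM). Baiap3 alone of the 17 was highest in wild-type stressed replicate 3. The part of this sum in the Magel2 values was not tested.

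Grb10, an adaptor that dampens insulin and growth factor signalling and is expressed from the paternal copy in neurons, was at 15.4, 13.5 and 21.7 TPM in het stressed mice, against 8.82, 12.7 and 18.3 TPM in het control mice. For wild-type mice the values were 16.2, 12.3 and 27.0 TPM after stress, against 9.41, 13.2 and 17.4 TPM in controls. Stressed and control mice overlapped in both genotypes, with replicate 3 highest in each of the 4 groups. For the stress average Grb10 had the narrowest interval of the 9 genes, at 0.18 ± 0.17 (SE, edgeR adjusted p = 0.9753, 95% interval -0.19 to 0.55). The value was 0.026 without wild-type stressed replicate 3, 0.088 without het stressed replicate 3 and 0.041 with limma-voom. Its highest CPM was 1.90 times its lowest, against a median of 2.02 over genes tested and 10.1 for Dlk1, 8.15 for Magel2 and 5.53 for Peg10. The most abundant of 12 listed Grb10 transcripts, of 5061 nt (ENSMUST00000093321.5), averaged 8.45 ± 1.44 TPM in het stressed and 7.66 ± 4.67 TPM in wild-type stressed mice, against 5.96 ± 3.28 TPM in het control and 6.03 ± 2.94 TPM in wild-type control mice (SD, n = 3 each). A lower transcript of 2048 nt (ENSMUST00000109653.1), singled out after its values were seen, was at 1.46, 0.98 and 1.67 TPM in wild-type stressed mice and was listed at 0 in all wild-type control mice. It was listed at 0 in replicates 1 and 2 and was at 0.08 TPM in replicate 3 of the het stressed mice, and was listed at 0 in all het control mice. Wild-type stressed and control mice thus did not overlap for this transcript. The same held in CPM for 5.79% of all genes, and in TPM for a Meg3 transcript given above. The share over all transcripts was not counted. This Grb10 transcript was not tested, and its value is an estimate of how reads shared between Grb10 transcripts divide.

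Cdkn1c, the maternally expressed cell cycle inhibitor p57, was at 2.81, 2.55 and 5.85 TPM in het stressed mice, against 4.16, 3.85 and 2.71 TPM in het control mice. For wild-type mice the values were 3.0, 2.56 and 3.07 TPM after stress, against 4.68, 2.74 and 4.55 TPM in controls. In TPM het stressed replicate 3 was the highest of the 12, and the other 5 stressed mice lay among the lower values. The stress average was -0.40 ± 0.28 (SE, edgeR adjusted p = 0.9753, 95% interval -1.01 to 0.20), and -0.62 without het stressed replicate 3 (adjusted p = 0.9986). It was -0.21 without het control replicate 1, -0.24 with length slope as covariate, -0.14 with limma-voom and -0.056 without both libraries of lowest slope. Markers of choroid plexus, the epithelium that makes cerebrospinal fluid, were high in several of the same libraries. Their summed level over 10 genes was 12.8, 16.5 and 576 TPM in het stressed and 6.5, 7.91 and 27.1 TPM in wild-type stressed libraries. In control libraries it was 484.5, 856 and 9.96 TPM (het) and 582, 303 and 337.5 TPM (wild type). Their leading gene Ttr, a thyroxine carrier, passed 200 TPM, a level set after its values were seen, in 1 stressed (het replicate 3) and 5 control libraries, and was at 11.4 TPM or less in the others. The part of this signal in the Cdkn1c values was not tested.

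**Figure D2:**
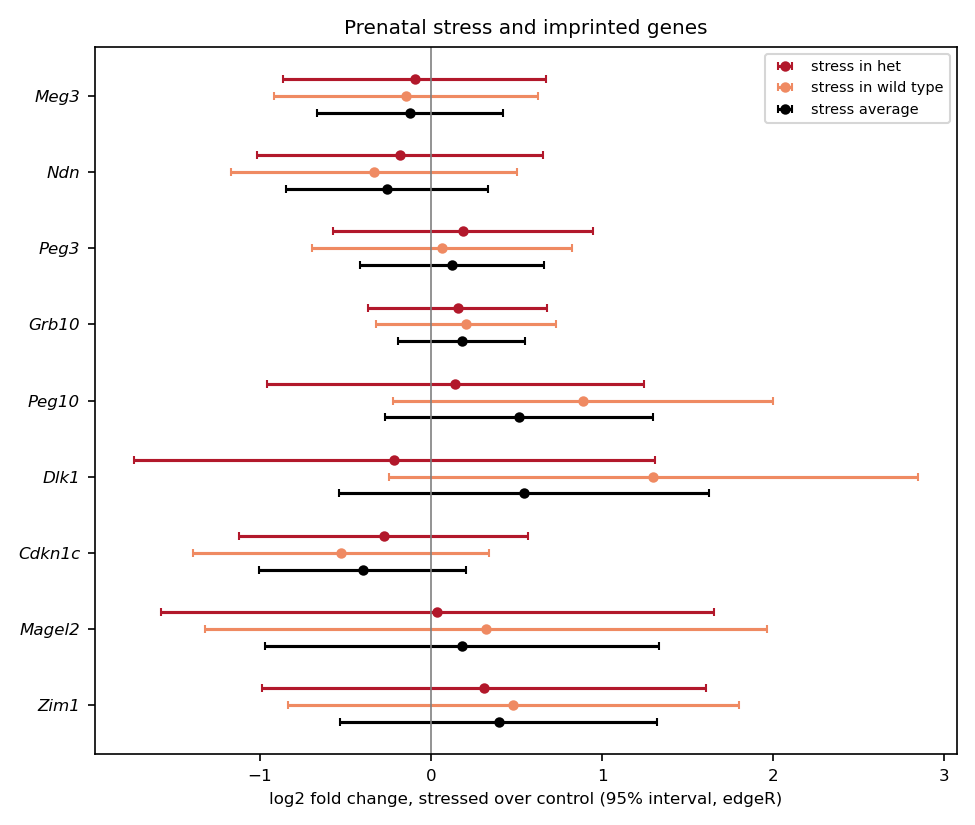
Log2 fold change of each of the 9 imprinted genes, stressed over control (horizontal axis), in het mice, in wild-type mice and averaged over genotypes; points are edgeR estimates and bars their 95% intervals. Every bar crosses 0, and the widest are those of Dlk1 and Magel2.

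None of the 9 genes was called between genotypes. For het against wild-type mice, averaged over prenatal conditions, 0 of the 9 were called by edgeR, where 0.00627% of all genes were called. None passed at an unadjusted p under 0.05, against 0.708% of all genes, and none had groups that did not overlap, against 0.0752%. The log2 fold changes, het over wild type, ran from -0.37 ± 0.49 for Dlk1 to 0.13 ± 0.27 for Ndn (SE), with 2 above 0 and 7 below (median -0.16), against 50.3% of all genes above 0. For the interaction, 0 of the 9 were called, where 0% of all genes were, and none had an unadjusted p under 0.05, against 1.33% of all genes. Of the 9, 4 had an interaction above 0, against 48.2% of all genes. Its values ran from -1.52 for Dlk1 to 0.25 ± 0.55 for Cdkn1c.

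By their likeness over libraries the 9 genes can be described as 3 sets, drawn after the values were seen and not sharply apart. Over the 12 libraries, in log2 CPM, Pearson's r was 0.929 between Dlk1 and Peg10, 0.896 between Peg10 and Magel2 and 0.857 between Dlk1 and Magel2. Grb10, Zim1 and Peg3 were alike too, with r of 0.868 between Grb10 and Zim1, 0.826 between Grb10 and Peg3 and 0.824 between Peg3 and Zim1. Ndn, Meg3 and Cdkn1c formed the third set, with r of 0.702 between Ndn and Meg3, 0.699 between Cdkn1c and Ndn and 0.695 between Cdkn1c and Meg3. Between sets r ran from -0.583 between Ndn and Peg3 to 0.76 between Zim1 and Peg10, which is above every r within the third set, and it was 0.658 between Magel2 and Zim1 and 0.636 between Grb10 and Peg10. These values are descriptions over libraries that also share depth, length slope and dissection, and wild-type stressed replicate 3 was the highest library for all genes of the first and second sets.

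The tested genes most like each of the 9 were as follows. For Dlk1 they were Arhgap36 (r = 0.954) and Peg10, for Peg10 they were Ahi1 (0.937) and Dlk1, and for Magel2 they were AW551984 (0.954) and Baiap3 (0.941). Baiap3, a secretory vesicle protein, was at 7.16, 7.74 and 26.9 TPM in het stressed and 9.85, 8.33 and 32.2 TPM in wild-type stressed mice. In control mice it was at 16.6, 4.0 and 9.63 TPM (het) and 15.0, 7.82 and 6.59 TPM (wild type), with the same 4 libraries on top as for Magel2. For Grb10 the closest were Nexmif and Wdr35 (both 0.943), for Peg3 Gprasp1 (0.980) and Mtor (0.971), and for Zim1 Pak3 (0.918) and Tro (0.909). Ndn was closest to Ociad1 and Eif4a1 (both 0.976), Meg3 to Amy1 (0.928) and Snhg11 (0.923), and Cdkn1c to 1700008O03Rik (0.898) and 4833420G17Rik (0.896). All r are over 12 libraries.

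**Figure D3:**
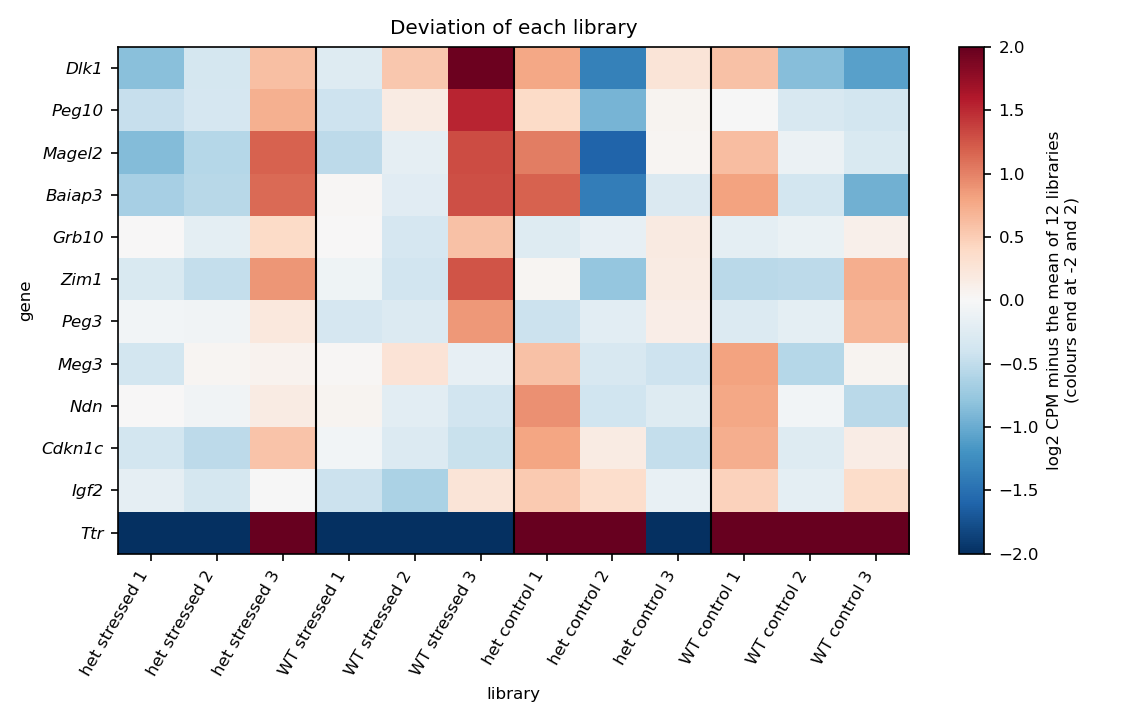
Log2 CPM of each gene minus its mean over the 12 libraries (colour, red above and blue below the mean, ending at -2 and 2) for the 9 imprinted genes with Baiap3, Igf2 and Ttr (rows), by library (columns, 4 groups of 3 mice). Dlk1, Peg10, Magel2 and Baiap3 are highest in wild-type stressed replicate 3, while Meg3, Ndn and Cdkn1c are highest in replicate 1 of the control groups.

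None of the other imprinted genes tested was called by edgeR either. Of 55 further imprinted genes listed for the mouse, 48 had an identifier in the files and 42 were tested. EdgeR called 0 of the 42 in any of the 5 contrasts, and so did DESeq2 and limma-voom. For stress averaged over genotypes 25 had fold changes above 0 and 17 below, with a median log2 fold change of 0.03, and 2 of 42 (4.76%) had an unadjusted p under 0.05, against 2.34% of all genes. The median was 0.02 over the 20 genes listed as paternally expressed and 0.03 over the 22 listed as maternally expressed. Whether these genes are imprinted in striatum was not measured.

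The lowest p among these genes belonged to Gatm and Igf2. Gatm, an enzyme of creatine synthesis imprinted in mouse placenta, averaged 144 ± 4.59 TPM in het stressed and 119.7 ± 18.2 TPM in wild-type stressed mice, against 138 ± 31.0 TPM in het control and 167 ± 48.7 TPM in wild-type control mice (SD, n = 3 each). Its stress average was -0.32 ± 0.13 (SE, edgeR unadjusted p = 0.02716, adjusted p = 0.9753), and its value in wild-type mice was -0.48 ± 0.18 (SE, edgeR unadjusted p = 0.02068, adjusted p = 0.9999). The summed level of 12 oligodendrocyte markers, none at 0 in all libraries, was 9950 to 11670 TPM in het stressed and 6936 to 9919 TPM in wild-type stressed libraries, against 5385 to 11070 TPM in het control and 9260 to 14170 TPM in wild-type control libraries. Both Gatm and these markers were highest in TPM in wild-type control replicate 3; their part in the Gatm values was not tested. Igf2, the paternally expressed fetal growth factor that choroid plexus and meninges keep expressing in adults, was at 10.1, 9.01 and 10.8 TPM in het stressed mice, against 12.8, 13.5 and 11.7 TPM in het control mice. In wild-type stressed mice Igf2 was at 7.13, 6.51 and 12.4 TPM, against 14.5, 9.30 and 15.0 TPM in wild-type control mice. All het stressed mice thus lay below all het control mice in TPM, but not in CPM, and wild-type groups overlapped. The stress average of Igf2 was -0.45 ± 0.19 (SE, edgeR unadjusted p = 0.03646, adjusted p = 0.9753), and it stood beside the summed choroid plexus level given above for Cdkn1c, whose part was not tested.

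Besides Gatm and Igf2, the genes named for a low p in the other contrasts also failed the test, all with an edgeR adjusted p of 0.9999 or 1. Osbpl5, a lipid transfer protein, had 14.86, 13.29 and 13.99 CPM in het stressed mice, against 10.25, 11.25 and 12.09 CPM in het control mice. These groups did not overlap, as for 6.68% of all genes, with a log2 fold change of 0.33 ± 0.14 (SE, edgeR unadjusted p = 0.03379). Stress in wild-type mice gave 0.34 ± 0.17 for Dlx5, a homeobox factor of striatal interneurons and their precursors (log2 fold change ± SE). Het over wild type, Sfmbt2 was at -0.55 ± 0.25 and Mest at 0.15 ± 0.10. The interaction was -0.47 ± 0.24 for Dlx5 and -2.96 ± 1.60 for Calcr, the calcitonin receptor. Calcr had only 1 to 60 counts a library, so its value carries a large counting error. It ran from 0.03 TPM in het control replicate 2 to 1.54 TPM in wild-type stressed replicate 3.

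**Figure D4:**
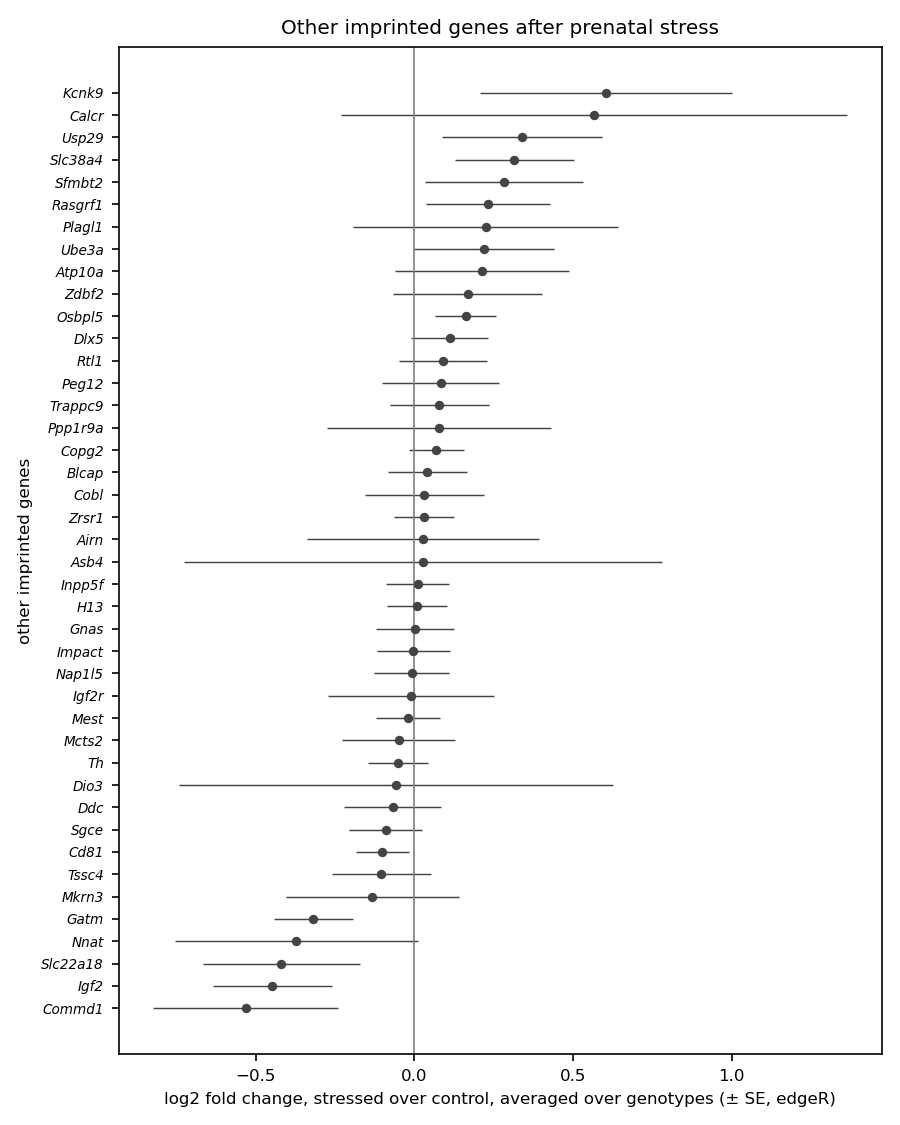
Log2 fold change, stressed over control and averaged over genotypes (horizontal axis), for the 42 other imprinted genes tested (rows, ordered by value); points are edgeR estimates and bars ± 1 SE. The values lie on both sides of 0, with Gatm and Igf2 among the lowest, and none passed the test.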

How the data were processed

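RNA-seq libraries of striatum from 12 mice, 3 in each of 4 groups, were analysed. The submitters' processing notes name RSEM, Bowtie and the mm9 (NCBIM37) build for the RNA data, without versions. The deposited gene and transcript tables give expected counts, TPM and effective lengths for each library, without pooling, per the file headers. Random-primed cDNA was used, per the labels' protocols, and no strand setting is stated, so reads of overlapping antisense genes cannot be told apart. The 5hmC data were not used here. Gene IDs were matched to symbols for 32606 of 37289 (87.4%).

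Expected counts were rounded and tested in R 4.3.3 with edgeR 4.0.16: filterByExpr, TMM, robust quasi-likelihood fit of 4 group means, two-sided, Benjamini-Hochberg over 15955 genes, threshold 0.05; the biological coefficient of variation was 0.256. TPM is per length and was used for levels. Contrasts were stress averaged over genotypes, stress within each genotype, genotype, and their interaction; those within a genotype and the average share libraries. Alternatives were DESeq2 1.42.0, limma 3.58.1 (voom with sample weights; log2(TPM + 1) and log2(TPM + 0.1), pseudocounts that shrink fold changes of low genes), median-ratio scaling, no filter, a replicate block, a length-slope covariate, each library left out, and, chosen after seeing the data, omission of both libraries of lowest slope. The procedure was tested on simulated data. The genes, lists and tests were chosen with earlier results of these data known. Named genes are all members, the 2 other imprinted genes of lowest p in each contrast, the 2 tested genes of highest r (log2 CPM, prior count 2) per member, Cntnap2, and leading markers; Xist was added after its values were seen. Promoters come from RefSeq (GRCm38.p6), not the build of the files.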

Additional observations from a re-analysis of the deposited data

How the results depend on the processing

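No imprinted gene of the 9 passed the test under any setting run, in any of the 5 contrasts: adjusted p lay between 0.1376 (Meg3, stress in wild-type mice, limma-voom) and 1 over 9 alternatives, and at 0.6115 or above with each library left out. Over all these settings an unadjusted p under 0.05 came up 11 times: 7 for Dlk1, 2 for Meg3 and 1 each for Cdkn1c and Peg10. Most fold changes are small against their errors, and their signs depend on the setting; the cause was not tested. No sign turned with DESeq2, without a filter, with median-ratio scaling or with the replicate block. Depth of 13587154 counts or more leaves Magel2 and Zim1 at 13 to 148 counts a library, and spread between mice limits the rest. The median of all genes moved to 0.12 for the stress average and 0.21 in het mice on the log2(TPM + 1) scale, and to 0.16 and 0.27 with 0.1 added (0.21 for the interaction).

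The replicate block left the counts of called genes at 0 for each stress contrast and the interaction and at 1 for genotype. Same-numbered libraries deviated together (r over 0.1) in 9 of 18 pairs between groups (-0.256 to 0.674). The other 9 pairs were not over 0.1, and the labels name no shared litter, batch or day, so the numbers were not taken to pair mice. As a hint from the data, 8 of 12 libraries correlated best with one of their own number. Over all genes, edgeR called 0, 0, 0, 1 and 0 genes for the stress average, stress in het, stress in wild type, genotype and interaction. DESeq2 called 3 for the stress average, 12 for stress in wild type and 2 for genotype; limma-voom called 6, 14, 43 and 10 for the first 4 contrasts. Genotype gave 2 without a filter, 3 on log2(TPM + 1), 2 on log2(TPM + 0.1) and 4 with the length slope. Leaving out 1 library gave 0 to 1 for stress in wild type (1 without wild-type control replicate 3) and 1 to 2 for genotype (2 without het control replicate 3).

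The log2 fold changes whose sign turned were as follows. With limma-voom and sample weights they were, for stress averaged over genotypes, Ndn (0.14) and Meg3 (0.42). In het mice they were Dlk1 (0.58), Ndn (0.33) and Meg3 (0.22). In wild-type mice they were Grb10 (-0.013), Cdkn1c (0.009), Magel2 (-0.14), Peg3 (-0.075) and Meg3 (0.63). For genotype they were Grb10 (0.088), Ndn (-0.087) and Peg3 (0.14). For the interaction they were Grb10 (0.11), Cdkn1c (-0.29), Magel2 (0.99), Zim1 (0.069), Peg10 (0.20) and Meg3 (-0.41). Without both libraries of lowest length slope they were, for stress averaged over genotypes, Ndn (0.24), Peg3 (-0.015) and Meg3 (0.29). In het mice they were Dlk1 (0.25), Cdkn1c (0.097), Ndn (0.36) and Meg3 (0.29). In wild-type mice they were Ndn (0.12), Peg3 (-0.091) and Meg3 (0.29). For the interaction they were Magel2 (0.10) and Zim1 (0.14). With the length slope as a covariate they were, for stress averaged over genotypes, Ndn (0.038), Peg3 (-0.055) and Meg3 (0.055). In het mice they were Ndn (0.17), Peg3 (-0.020) and Meg3 (0.13). In wild-type mice they were Peg3 (-0.090). For genotype they were Grb10 (0.006). On the log2(TPM + 0.1) scale they were, for stress averaged over genotypes, Meg3 (0.089). In het mice they were Dlk1 (0.27), Ndn (0.20) and Meg3 (0.22). For the interaction they were Magel2 (0.12) and Zim1 (0.044). On the log2(TPM + 1) scale they were, for stress averaged over genotypes, Meg3 (0.088). In het mice they were Dlk1 (0.22), Ndn (0.20) and Meg3 (0.22). On the TPM scales these values are no turn relative to all genes: they lie below the median of all genes, except Dlk1, and on log2(TPM + 1) also Meg3, in het mice, which are about level with it.

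With each library left out in turn, 35 of 45 member values turned sign at least once. The ranges were, for stress averaged over genotypes, Magel2 -0.31 to 0.56, Ndn -0.40 to 0.012, Peg3 -0.13 to 0.30 and Meg3 -0.25 to 0.092. In het mice they were Dlk1 -0.73 to 0.25, Grb10 -0.025 to 0.30, Cdkn1c -0.71 to 0.097, Magel2 -0.93 to 0.79, Ndn -0.43 to 0.36, Zim1 -0.30 to 0.57, Peg10 -0.34 to 0.43 and Meg3 -0.27 to 0.29. In wild-type mice they were Grb10 -0.091 to 0.40, Magel2 -0.47 to 0.67, Ndn -0.59 to 0.11, Peg3 -0.44 to 0.43, Zim1 -0.27 to 1.08 and Meg3 -0.41 to 0.28. For genotype they were Dlk1 -0.62 to 0.046, Grb10 -0.12 to 0.11, Cdkn1c -0.11 to 0.27, Magel2 -0.57 to 0.30, Ndn -0.15 to 0.35, Peg3 -0.32 to 0.025, Zim1 -0.55 to 0.12, Peg10 -0.46 to 0.15 and Meg3 -0.36 to 0.057. For the interaction they were Grb10 -0.24 to 0.23, Cdkn1c -0.18 to 0.62, Magel2 -1.25 to 0.49, Ndn -0.29 to 0.69, Peg3 -0.25 to 0.61, Zim1 -0.79 to 0.56, Peg10 -1.22 to 0.000 and Meg3 -0.37 to 0.44.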
